A study of Mus musculus with 10 samples.

Results

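Cytosolic ribosomal protein genes were examined in mouse alveolar macrophages, the resident phagocytes of the airspaces of the lung. Members were chosen by symbol: names of the Rpl and Rps series with at most a short suffix, together with Rplp0, Rplp1, Rplp2, Rpsa and Fau, and without the S6 kinases. A level of at least 1 FPKM (fragments per kilobase of transcript, scaled to the mapped fragments of the run) in at least 2 of the 10 deposited columns was required. The rule used no difference between groups. It gave 84 genes of the 26173 in the table. Of these, 46 encode proteins of the large subunit, 32 encode proteins of the small subunit, and 6 are paralogues (Rpl3l, Rpl7l1, Rpl10l, Rpl22l1, Rps4l and Rps27l). The other 78 are called the canonical genes here. The level filter kept 84 of 85 matched symbols. Rpl39l lay just outside it, and Rpl3l, at 0 to 2.12 FPKM over the 10 columns, lay just inside.

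All animals were C57BL/6 mice aged 16 weeks that the labels give as female. There were 5 groups of 2 samples. Mice with Bach2-floxed alleles and the CD4cre transgene gave a normal-marker macrophage library, whose surface markers were those of controls, and an aberrant-marker library, whose surface markers differed from controls. Control mice of that cross gave the conditional control library. The other 2 groups were wild type and Bach2 germline KO (germline knockout). Bach2 is a transcriptional repressor of lymphocytes and macrophages, and a Cre transgene under Cd4 control acts mainly in T cells, so deletion in the macrophages themselves is not given by the genotype. The 2 conditional knockout populations were separated by surface phenotype, and the exact alleles of the control mice are not stated in the sources used here.

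The 2 samples of a group agreed as closely as repeat runs of 1 library would. The Pearson correlation of log2 levels was 0.993 to 0.998 within groups and 0.685 to 0.853 between groups. They were therefore averaged and counted as 1 library, their values are called runs, and no comparison has a replicate check or a p-value. Depth, estimated from the steps between low values, was about 7.46 to 9.44 M fragments per run. A pair of libraries was called apart at a gene where log2(FPKM + 1) differed by at least 1 (2-fold) in the mean and in all 4 pairings of runs, provided that the higher library reached 20 FPKM. The 2 control libraries, wild type and conditional control, give 1 example of how far libraries not labelled as knockouts differ. That pair also differed in the sex-linked RNAs given next. Labels and data disagreed on sex: Eif2s3y, a Y-linked gene, was at 60.8 FPKM in the wild type and 39.9 FPKM in the germline knockout, and at 0.11 FPKM or less in the conditional libraries. Xist, the RNA of the inactive X chromosome, was at 3.75 to 9.08 FPKM in the conditional libraries and under 0.01 FPKM in the other 2. Bach2 itself was at 0.0571 FPKM or less in every library, too low to check the genotypes.

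A ribosome translates messenger RNA into protein. Its small subunit reads the message and its large subunit joins the amino acids, and the proteins of each subunit are needed in equal numbers, because each occupies its own place on the ribosomal RNA (the acidic stalk proteins Rplp1 and Rplp2 are the exception). In mammals most ribosomal protein genes have compact promoters without a TATA box, and their mRNAs begin with a cytosine followed by an uninterrupted stretch of pyrimidines. This 5′ terminal oligopyrimidine (TOP) stretch lets the kinase mTOR, through the protein LARP1, hold back or release their translation together. In macrophages the demand for ribosomes follows growth and activation.

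Because members of this family moved together across libraries, the sequence around the start sites is shown for genes at either end of that movement. RefSeq promoter windows (build GRCm38.p6, 250 bases before to 50 after the start) were found for 63 of the 84 members. Below are the 15 bases before and the 15 bases after the annotated start, on the coding strand. Capitals mark the longest run of C or T within the window, where it is at least 6 bases long. The first 3 genes were among the 6 with the largest differences between the aberrant-marker library and its control, and Rpl36a and Rplp2 had small ones. Rps19, also among those 6, is not shown. It has several annotated starts, with longest runs of 4, 4 and 7 bases, so the genes shown do not stand for all 6.
Rps6, chr4:86857353-86857382, minus strand: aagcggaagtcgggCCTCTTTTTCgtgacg
Rps27, chr3:90213634-90213663, minus strand: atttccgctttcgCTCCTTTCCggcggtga
Rps15a, chr7:118116133-118116162, minus strand: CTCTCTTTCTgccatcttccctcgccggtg
Rpl36a, chrX:134585639-134585668, plus strand: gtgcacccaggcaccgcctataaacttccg
Rplp2, chr7:141447636-141447665, plus strand: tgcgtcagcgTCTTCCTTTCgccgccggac
The next 4 kept the steadiest place among the members in all libraries.
Rps26, chr10:128626492-128626521, minus strand: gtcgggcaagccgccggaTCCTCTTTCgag
Fau, chr19:6057932-6057961, plus strand: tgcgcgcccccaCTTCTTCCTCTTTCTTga
Rps4x, chrX:102189377-102189406, minus strand: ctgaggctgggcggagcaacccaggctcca
Rpl15, chr14:18270972-18271001, minus strand: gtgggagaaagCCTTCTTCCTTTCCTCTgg
The last 3 are the gene that was low in the wild type alone, and a pair of paralogues.
Rpl23, chr11:97782425-97782454, minus strand: acgaggtccggtcacgtggctgagtgggcg
Rpl10, chrX:74270801-74270830, plus strand: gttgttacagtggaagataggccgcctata
Rpl10l, chr12:66284387-66284416, minus strand: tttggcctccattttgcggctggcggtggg

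Over all matched canonical genes (68 annotated starts of 58 genes), a run of at least 8 C or T stood in this 30-base window at 39.7% of starts, against 12.0% of the 32851 promoters in the table. The letters CTTTCC, read on the coding strand within 50 bases of the start and often part of such a run, were found at 30.9% against 4.69%. Within the 300 bases, on either strand, the core of ETS factor sites CCGGAA was present in 48.5% against 14.9%, the SP1 core GGGCGG in 61.8% against 35.7%, and the YY1 core GCCATCT in 14.7% against 6.40%. The TATA box letters TATAAA were found in 8.82% against 13.6%. The 100 bases before the start are shown for Rps6, which encodes the target of the S6 kinases, and for Rpsa, whose product is the laminin-binding protein of the small subunit. The capitals mark the ETS core, read on the coding strand in Rps6 and on the opposite strand in Rpsa.
Rps6, chr4:86857368-86857467, minus strand: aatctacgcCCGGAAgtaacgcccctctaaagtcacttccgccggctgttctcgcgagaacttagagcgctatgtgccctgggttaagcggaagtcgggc
Rpsa, chr9:120127666-120127765, plus strand: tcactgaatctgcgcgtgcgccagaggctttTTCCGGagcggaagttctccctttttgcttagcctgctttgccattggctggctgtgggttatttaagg
These matches describe letters in a window and are not measured sites.

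Ribosomal protein transcripts made up a larger part of the measured RNA in the aberrant-marker library than in any other. The 84 members held 14.9% of the summed FPKM there (14.9% and 14.8% in its runs). They held 7.18% in conditional control macrophages and 6.19% in normal-marker macrophages, and 7.83% in the wild type and 9.83% in the germline knockout. The ratio of shares was thus 2.07 for the aberrant-marker library over the conditional control, 0.863 for the normal-marker library over the conditional control and 1.26 for the germline knockout over the wild type. The 2 control libraries differed by 1.09. Among the 100 genes with the highest FPKM of each library, 46 were members in the aberrant-marker library. The other 4 libraries had 17 to 27 such members. These are shares of sequenced RNA, and more ribosomal protein RNA per cell, less of other RNA, and a change in the kinds of cell present cannot be told apart in bulk samples.

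**Figure D1:**
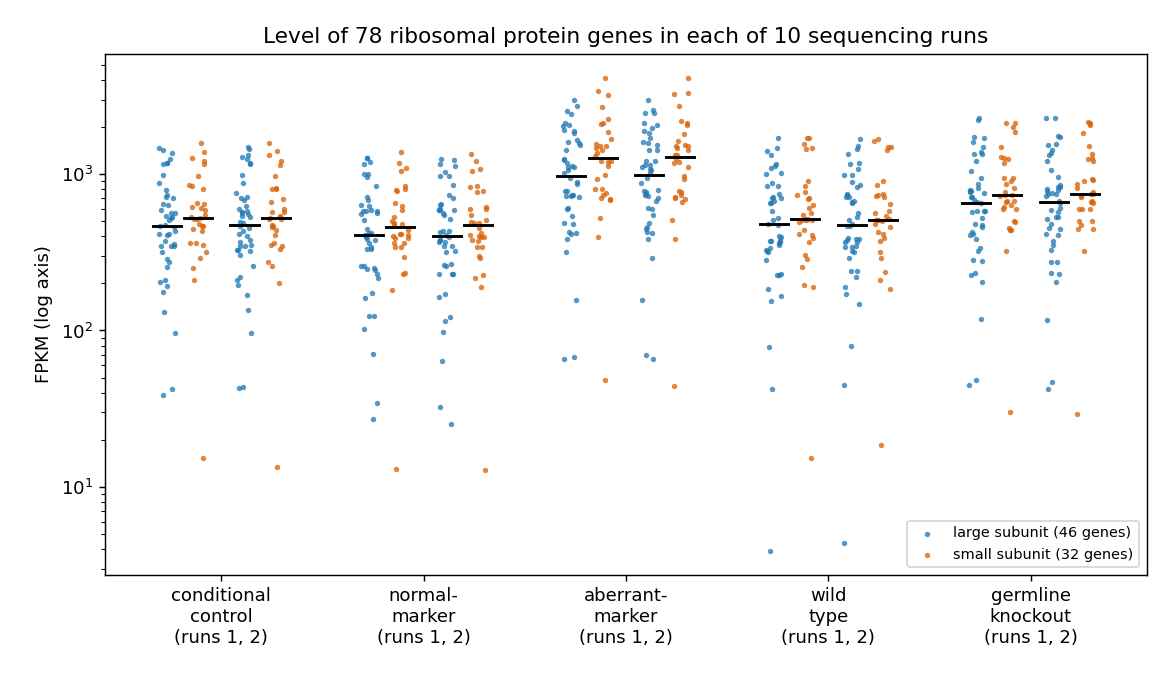
Level of the 78 canonical genes in each of 10 runs (FPKM, log axis), large subunit in blue and small subunit in orange; black bars are medians. The 2 aberrant-marker runs stand highest, with subunit medians of 979 and 1274 FPKM, and the low points in the wild type at about 4 FPKM are Rpl23.

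The level of the canonical genes spanned a wide range within each library. Their median was 520 FPKM in conditional control macrophages, 424 in normal-marker and 1117 in aberrant-marker macrophages, 511 in the wild type and 719 in the germline knockout. Rps15a was the lowest gene in 4 libraries, at 12.9 to 46.0 FPKM, and Rpl23 was the lowest in the wild type at 4.12 FPKM. The 5 members with the highest mean were Rps19, Rps9, Rpl13, Rpl41 and Rps2. The highest gene of the conditional control was Rps9 at 1576 FPKM. Rps2 led in the normal-marker library at 1361 FPKM and in the wild type at 1697 FPKM, Rps19 led in the aberrant-marker library at 4122 FPKM, and Rpl41 led in the germline knockout at 2288 FPKM. FPKM are per length, and annotated length ran from 345 to 5179 bases (median 814) over the 76 canonical genes with a length. Across these genes, length and mean level had a Spearman rho of -0.14, a description over genes that are not independent.

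Aberrant-marker macrophages had more ribosomal protein RNA than the conditional control at nearly every member. All 78 canonical genes were higher in every pairing of runs, by 0.15 to 1.96 on the log2 scale, with a median of 1.08 and an SD over genes of 0.38. That median is a 2.11-fold difference, and 62 of the 78 genes lay between 1.5-fold and 3-fold. Of the 84 members, 44 were called 2-fold higher and 0 lower. Over all 11336 genes, 8.6% were called higher and 9.13% lower, and among the 4682 genes with at least 20 FPKM the shares were 20.8% and 22.1%. At 4-fold, 0 members were called, against 4.09% of all genes called higher and 3.76% lower. The median difference over all genes was 0.00, and over the 882 other genes with a mean of at least 100 FPKM it was -0.19. Every pairing was in the direction of the aberrant-marker library at 81 members, 1 was lower in every pairing and 2 were mixed. In the whole table, 45.1% of genes were higher in every pairing and 45.1% were lower. With the wild type as the reference in place of the conditional control the members' median was 1.05, and 43 were called 2-fold higher and 2 lower, against backgrounds of 9.44% and 9.47%.

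Small subunit genes showed the larger differences. Of 32 canonical small subunit genes, 23 were called 2-fold higher, with a median of 1.17, and of 46 large subunit genes 20 were, with a median of 1.01. The largest difference was that of Rps6, whose phosphorylation by S6 kinases is the usual marker of mTOR activity. Rps6 had conditional control runs of 364 and 365 FPKM and aberrant-marker runs of 1432 and 1420 FPKM, a log2 difference of 1.96. Its other libraries lay between 340 and 617 FPKM. Rpl17, a protein at the mouth of the exit tunnel of the large subunit, went from 286 and 322 to 1171 and 1140 FPKM, a difference of 1.92. Rps19, the gene most often mutated in Diamond-Blackfan anaemia, went from 1165 and 1146 to 4107 and 4137 FPKM, a difference of 1.83. At all 3 genes both aberrant-marker runs lay above the runs of every other library, which does not set them apart from the family. Against the conditional control, the normal-marker library and the wild type, all 78 canonical genes were higher in every pairing. Over all genes these shares were 45.1%, 47.6% and 46.3%. The share of all genes above every other library at once was not counted. In the control, Rps6 and Rpl17 lay below the canonical median and Rps19 above it.

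Next came Rps27 with a log2 difference of 1.67, Rpl21 with 1.65 and Rps15a with 1.63. Rps27 encodes a zinc finger protein of the small subunit. Its control runs were at 519 and 520 FPKM and its aberrant-marker runs at 1670 and 1631 FPKM. Rpsa was at 544 and 540 FPKM in the control and at 1548 and 1539 FPKM in the aberrant-marker library, a difference of 1.51. Fau, which encodes a small subunit protein fused to a ubiquitin-like protein, lay near the family median, with 977 and 979 against 2119 and 2115 FPKM, a difference of 1.11.

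At the other end of the range the aberrant-marker library was barely above the control. Rps29, a small zinc-binding protein, was at 464 and 471 FPKM in the control and at 528 and 512 FPKM in the aberrant-marker library, a log2 difference of 0.15. Rpl36a, an X-linked gene of the large subunit, was at 255 and 260 against 317 and 293 FPKM, a difference of 0.24. Rpl29 differed by 0.39. The runs of the 2 libraries did not overlap at any of these genes, although none was called. Such separation of runs was common, since 45.1% of all genes were higher and 45.1% lower in every pairing. The stalk, which recruits elongation factors to the large subunit, was split: Rplp0, its base, went from 1166 and 1155 to 2442 and 2453 FPKM and was called, whereas Rplp1 differed by 0.58 and Rplp2 by 0.53 and were not. Of the 4 X-linked members, Rps4x was called, with a difference of 1.21. The other 3, Rpl10 with 0.63, Rpl39 with 0.58 and Rpl36a, were below the median of the family. Against the normal-marker library, which has the same genotype label, the pattern was wider still. Whether the 2 libraries came from the same mice is not stated. The members' median difference was 1.26, with 56 members called higher and 0 lower against backgrounds of 9.27% and 8.19% (22.8% and 20.2% of genes with at least 20 FPKM).

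**Figure D2:**
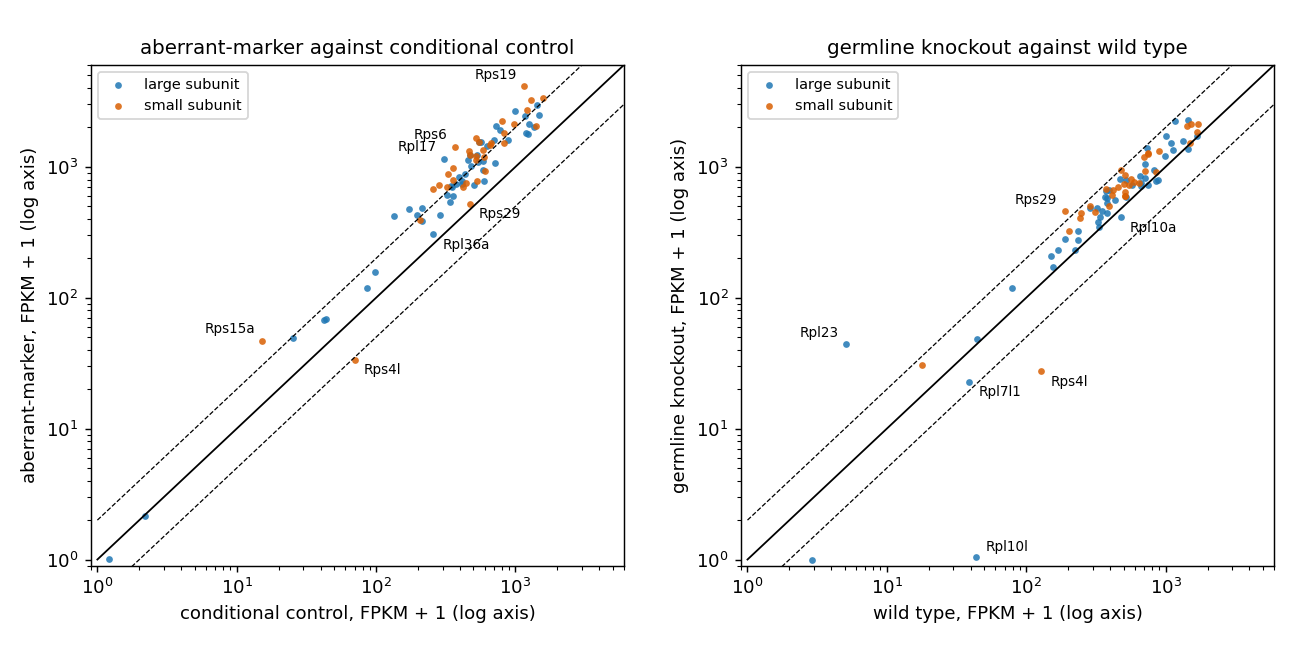
Library mean of each of the 84 members (FPKM + 1, log axes), aberrant-marker against conditional control on the left and germline knockout against wild type on the right; the solid line is equality and the dashed lines are 2-fold. On the left nearly all points lie above equality and 44 were called 2-fold higher; on the right most lie between equality and 2-fold, apart from Rpl23, Rps29, Rps4l and Rpl10l.

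Other cell types differed between these libraries, and their part in the ribosomal protein result was not tested. Of 13 alveolar macrophage markers in the table, 10 reached 1 FPKM in the aberrant-marker library against 13 in the conditional control, with Marco, a scavenger receptor, at 0.258 against 224 FPKM. The summed level of the list was 8964 to 9089 FPKM per run against 16347 to 16563, most of it the chitinase-like gene Chil3. Of 13 T cell genes, 11 reached 1 FPKM in the aberrant-marker library and 1, Cd2, in the control. The T cell receptor chains Cd3e and Cd3g were at 17.7 and 24.1 FPKM in the aberrant-marker library and at 0 in the control. The summed T cell list was 1843 to 1892 FPKM against 328 to 331, of which Ccr7, also a gene of migrating dendritic cells, was 1564 FPKM. The 10 dendritic cell genes summed to 14895 to 14994 FPKM against 1070 to 1119, of which Cst3, a protease inhibitor that macrophages also express, was 13000.2 against 1063 FPKM. Flt3 was at 37.3 and Cd209a at 109 FPKM, both at 0 in the control, while Clec9a was at 0.620 against 1.90 and Xcr1 was listed at practically 0 against 2.09. The 5 B cell genes were at 0 in all libraries. Of 8 proliferation genes, 1 (Cdk1) reached 1 FPKM in the aberrant-marker library, and they summed to 4.01 to 4.61 FPKM against 131 to 143 in the control, so higher ribosomal protein RNA stood beside lower cell cycle RNA.

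Germline knockout macrophages also had more ribosomal protein RNA than the wild type, by less. The median over the 84 members was 0.43 on the log2 scale and over the canonical genes 0.45, a 1.37-fold difference, and 71 of 78 canonical genes were higher in every pairing of runs. Over all genes 39.9% were higher and 45.8% lower in every pairing. Calls were few: 2 members were 2-fold higher (Rpl23 and Rps29) and 2 lower (Rpl10l and Rps4l), against backgrounds of 6.13% higher and 8.98% lower (15.6% and 22.9% of genes with at least 20 FPKM). The small subunit median was 0.54 and the large subunit median 0.37. After Rpl23 and Rps29, the largest difference was that of Rps27, at 495 and 458 FPKM in the wild type and 946 and 934 FPKM in the germline knockout, a difference of 0.98. Rpl13, which was among the 5 highest members, was at 1164 and 1185 against 2216 and 2272 FPKM, a difference of 0.93. Genes on the other side were few and close to equality. Rpl10a fell short of the wild type by the most among canonical genes, at 476 and 478 against 411 and 409 FPKM, a difference of -0.22. Rpl3, Rpl7, Rpl10 and Rpl11 differed by -0.16, -0.12, -0.08 and -0.05.

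Several macrophage markers were lower here too. Of the 13 alveolar macrophage genes, 10 reached 1 FPKM in the germline knockout, Marco was at 13.5 against 339 FPKM and Cidec, a lipid droplet protein, was listed at 0 against 405 FPKM. The list sum was higher, 47753 to 47978 against 18528 to 18744 FPKM per run, with Chil3 at 46574 against 9278 FPKM. Cd3e, Cd3d and Cd3g were at 0 in both libraries. Of the 13 T cell genes, 3 reached 1 FPKM in the germline knockout (Cd2, Il7r and Ccr7) and 1 in the wild type, and the list summed to 138 to 139 against 447 to 464 FPKM. Ccr7 was at 71.6 against 0.0333 FPKM and Il7r at 41.7 against 0.0156. The 10 dendritic cell genes summed to 1961 to 2004 against 931 to 936 FPKM, most of it Cst3, at 1895 against 855 FPKM, and Fscn1 was at 9.52 against 0. Proliferation genes summed to 14.5 to 17.4 FPKM against 148 to 152. The part of these differences in the ribosomal protein result was not tested.

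Normal-marker macrophages of the conditional knockout had slightly less ribosomal protein RNA than the conditional control. The members' median was -0.23, and 70 of 84 were lower and 9 higher in every pairing, against 45.6% and 38.2% of all genes. No member was called in either direction, against backgrounds of 3.34% higher and 4.04% lower (8.87% and 10.7% of genes with at least 20 FPKM). Canonical differences ran from -0.70 to 0.28. The lowest were Rpl13a and Rpl5, both at -0.70. Rpl5, which with Rpl11 binds the 5S ribosomal RNA, was at 193 and 196 FPKM in the control and 124 and 114 FPKM in the normal-marker library. The third was Rpl23 at -0.63. The highest were the paralogue Rpl7l1 at 0.41, Rpl17 at 0.28 and Rpl28 at 0.23. Of the alveolar macrophage list 13 of 13 genes reached 1 FPKM, with a sum of 34336 to 34644 FPKM per run against 16347 to 16563 in the control. Chil3 made up most of it, at 27735 against 9166 FPKM. The other genes of the list were split. Itgax, Pparg, Fabp4, Car4, Mrc1 and Lpl were higher than in the control, with Car4 at 1123 against 308 FPKM. Marco, Siglec5, Ear1, Ear2, Krt79 and Cidec were lower, with Ear1 at 476 against 966 and Cidec at 94.6 against 299 FPKM. Of the T cell list 1 of 13 genes reached 1 FPKM (Cd2), with a sum of 261 to 266 against 328 to 331 FPKM. The dendritic cell list summed to 1102 to 1108 against 1070 to 1119 FPKM, the lung epithelium list to 110 to 122 against 233 to 237, and the proliferation list to 158 to 160 against 131 to 143. The part of these differences in the ribosomal protein result was not tested.

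Wild type minus conditional control gave a members' median of 0.11 (0.07 over canonical genes), with 45 members higher and 32 lower in every pairing, against 39.6% and 43.9% of all genes. Of the members, 1 was called higher (Rpl10l) and 2 lower (Rpl23 and Rps29), against backgrounds of 3.81% and 4.15% (9.89% and 10.8% of genes with at least 20 FPKM). The 3 named genes are those that also stood out between the germline knockout and the wild type, and both comparisons use the same wild-type library. Apart from these, the paralogues Rps4l and Rpl22l1 had the largest positive differences, at 0.87 and 0.85. Rps25 and Rps16 had the most negative ones at -0.54 and -0.53.

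Set side by side, the aberrant-marker and germline knockout comparisons use different controls. At 72 members both were higher than their control in every pairing, against 20.9% of all genes. At Rpl3, Rpl7, Rpl10, Rpl10a, Rpl11 and Rpl7l1 the aberrant-marker library was higher and the germline knockout lower, against 16.6% of all genes. At 1 member, Rps4l, both were lower, against 25.49%. The normal-marker library was lower than its control and the germline knockout higher than its own at 60 members, against 17.0% of all genes. Whether these comparisons differ was not tested, since each rests on 1 library a side.

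The proportions of the ribosomal protein RNAs were kept more closely than their total. Each level was expressed relative to the median member of its library, and 76 of 78 canonical genes stayed within 1.5-fold of their own mean relative level in all 5 libraries. The median SD of that relative level over libraries was 0.198 on the log2 scale, against 0.0315 between runs of a library. No like value was computed for another gene set, so whether such steadiness is particular to this family was not tested. The order of the canonical genes was similar in every pair of libraries, with Pearson correlations of log2 levels of 0.934 to 0.984 over 78 genes. Over all 11336 genes the same correlations were 0.688 to 0.853, but that set reaches down to 1 FPKM and is not matched in level. The points share length, base composition and library preparation, and these values are descriptions. For canonical genes with a mean of at least 100 FPKM, the median SD of the level itself over libraries was 0.55, against 0.49 for the 882 other genes of that height, so without centring the family was no steadier than the rest. Without the aberrant-marker library these values were 0.33 and 0.38.

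The steadiest members relative to the family were Rps26, with an SD of 0.05, Fau with 0.06, Rps4x with 0.07 and Rpl15 with 0.08. Rps26, which sits where the message leaves the small subunit, had conditional control runs of 644 and 663 FPKM, normal-marker runs of 535 and 548, aberrant-marker runs of 1475 and 1468, wild-type runs of 707 and 710 and germline knockout runs of 944 and 920. Its level thus followed the family median from library to library. Rpl15, a large subunit protein, was at 211 FPKM in both control runs and at 485 and 489 FPKM in the aberrant-marker runs, a difference of 1.20. Rps4x, on the X chromosome, had conditional control runs of 519 and 524 FPKM and wild-type runs of 568 and 561. It was picked as among the steadiest members over all 5 libraries. That it went with the family in libraries holding Y-linked RNA and in those holding Xist follows from that choice. The other X-linked members were less steady, with SDs of 0.41 for Rpl36a, 0.34 for Rpl10 and 0.30 for Rpl39. The canonical median was 0.198. Whether sex plays a part in these levels was not tested.

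The 2 canonical genes outside the 1.5-fold limit were farthest from their mean in the wild type. Rpl23, a large subunit protein that also binds Mdm2, was at 3.89 and 4.35 FPKM in the wild-type runs and at 25.3 to 67.8 FPKM in all other runs. Its log2 difference was -3.04 for the wild type minus the conditional control and 3.11 for the germline knockout minus the wild type. Rps29 was at 190 and 185 FPKM in the wild type and at 301 to 528 FPKM elsewhere, with differences of -1.31 and 1.28. Both wild-type runs lay below all other runs at these genes, and the share of all genes with that pattern was not counted. Both runs come from 1 library made from 100 pg of RNA with 18 cycles of amplification, so the genes' level in wild-type macrophages cannot be told apart from their recovery in that library. The differences between aberrant-marker library and conditional control at these genes, 0.69 and 0.15, do not involve the wild type.

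**Figure D3:**
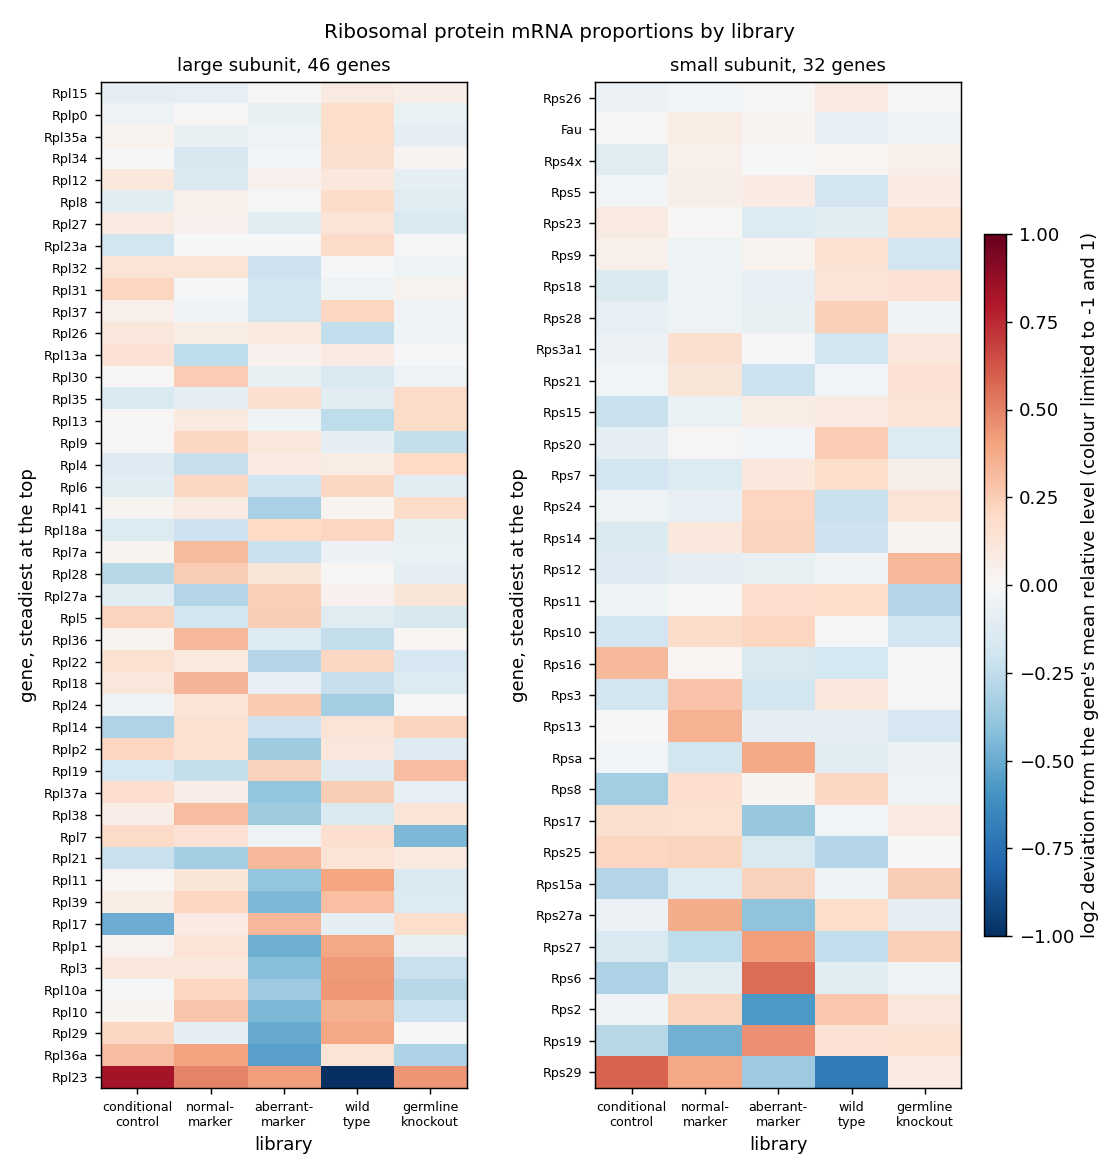
Level of each canonical gene relative to the median member of its library, as log2 deviation from the gene's own mean over 5 libraries, with the steadiest genes at the top of each subunit. Most cells are pale; the strongest colours are Rpl23 and Rps29, low in the wild type and high in conditional control macrophages, followed by Rps2, Rps6, Rpl36a and Rpl29 in the aberrant-marker library.

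The balance between subunits moved a little. The ratio of the small subunit median to the large subunit median was 1.30 in aberrant-marker macrophages. It was 1.12 and 1.14 in conditional control and normal-marker macrophages, 1.08 in the wild type and 1.12 in the germline knockout. In the aberrant-marker library, Rps6, Rps19 and Rps27 were high relative to the family. Rps2, a protein of the message entry site, was the small subunit gene that was lowest relative to its usual place, with 1395 and 1409 FPKM in the control and 2082 and 2055 FPKM in the aberrant-marker library, a difference of 0.56. The large subunit genes Rpl3, Rpl10, Rpl10a, Rpl11, Rpl29, Rpl36a, Rpl39 and Rplp1 differed by less than 0.8 each between the aberrant-marker library and the control. Canonical genes with a run of at least 8 C or T at a single annotated start (22 genes) had a median difference of 1.17 in the aberrant-marker comparison, and the 28 without it 1.03. In the germline knockout these medians were 0.55 and 0.39, and in the normal-marker comparison -0.22 and -0.24. With and without the ETS core the aberrant-marker medians were 1.09 and 1.08, with and without CTTTCC they were the same, 1.09 and 1.08, and with the SP1 core (30 genes) and without it (20 genes) they were 1.00 and 1.16. Rps4x, with no such run in its window (shown above), differed by 1.21, and Fau, with a run of 16 bases, by 1.11. Both were picked for staying close to the family median, so their likeness follows from that choice. Whether the run plays a part was not tested.

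Paralogues did not all follow their partners. Rps27l, a close relative of Rps27 and a p53 target, moved with the family, with 324 and 326 FPKM in the conditional control and 871 and 897 FPKM in the aberrant-marker library, a called difference of 1.44. Rpl22l1 exceeded its partner Rpl22 in every library: their means were 84.6 FPKM and 42.8 FPKM in conditional control macrophages, and 172 FPKM and 47.5 FPKM in the germline knockout. Rpl22l1 differed between the 2 control libraries by 0.85, more than between the aberrant-marker library and the control (0.46). Rpl7l1, a relative of Rpl7 with a part in ribosome assembly, was at 21.1 to 51.6 FPKM over the 10 runs, against 682 to 1606 FPKM for Rpl7. It differed by 0.98 in the aberrant-marker comparison and by -0.77 in the germline comparison.

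The other 3 paralogues were at low or erratic levels. Rpl10l, a copy of the X-linked Rpl10 known for its use in the testis, was at 41.4 and 44.4 FPKM in the wild type and under 0.5 FPKM in all other runs. Rpl10 itself was at 1463 and 1453 FPKM in the wild type and 1395 and 1358 FPKM in the germline knockout. Rps4l, listed in RefSeq as a non-coding entry, ran against the family. It was at 127 and 128 FPKM in the wild type and 27.3 and 25.3 in the germline knockout, a called difference of -2.23. Its conditional control runs were at 68.3 and 70.5 FPKM and its aberrant-marker runs at 29.9 and 35.2, a difference of -1.07 that missed the call because not every pairing reached 2-fold. Rpl3l, the muscle form of Rpl3, did not pass 2.12 FPKM in any run and was 0 in both germline knockout runs. The counting model divided reads between near-identical entries, so the levels of paralogues are estimates.

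**Figure D4:**
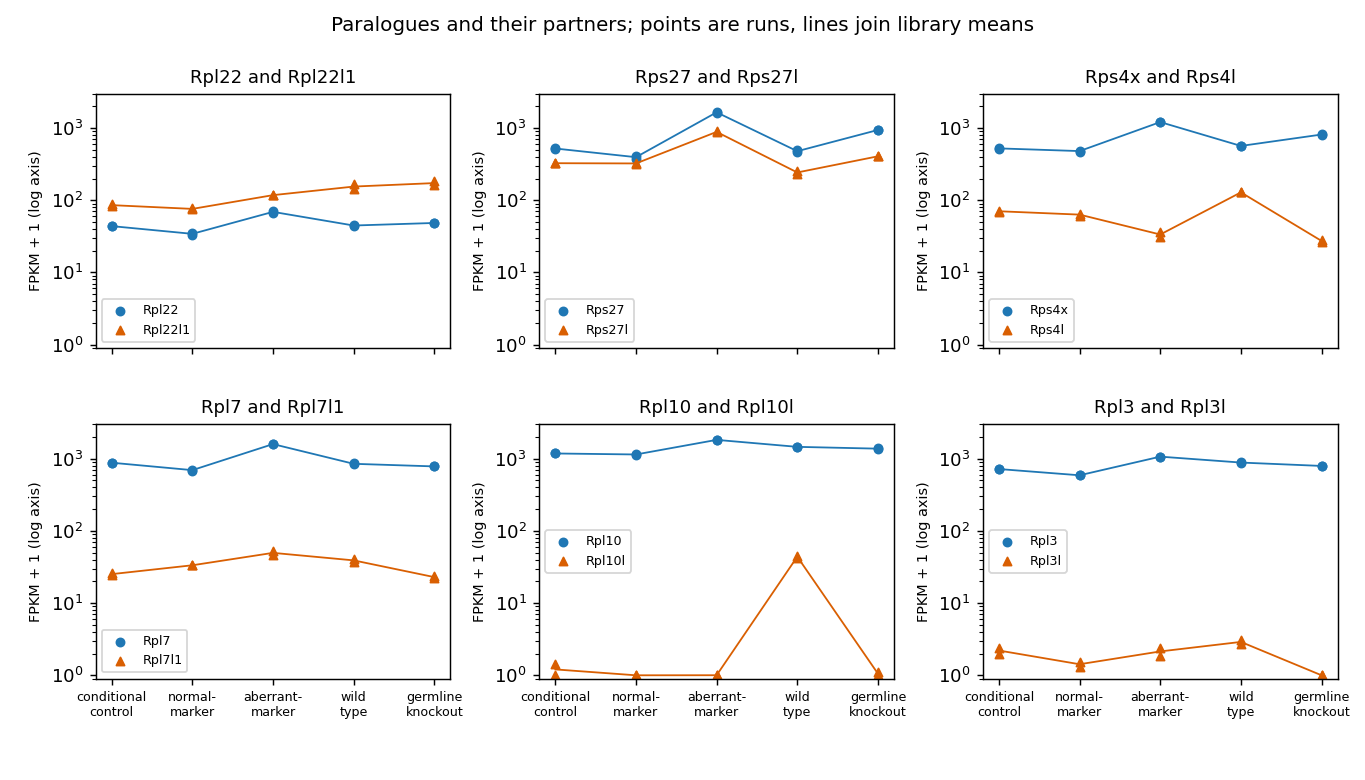
Level of 6 paralogues (orange) and their partners (blue) in each run (FPKM + 1, log axis), with lines through library means. Rps27l tracks Rps27, Rpl22l1 lies above Rpl22 in all 5 libraries, and Rpl10l leaves the floor in the wild type only.

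Processed copies in the table affect a few members. Rps15a, at 12.8 to 48.1 FPKM the third lowest member by mean, has 2 pseudogene entries, and the 3 together summed to 36.8 FPKM in conditional control and 30.7 in normal-marker macrophages, 129 in aberrant-marker macrophages, 45.0 in the wild type and 87.0 in the germline knockout. The order of libraries was the same as for Rps15a alone. Rpl31 with its pseudogene entry summed to 165 FPKM in the control and 307 FPKM in aberrant-marker macrophages, and Rps27 with the retrotransposed copy Rps27rt at 675 and 1810. Within Rpl28, 2 isoforms exchanged places between the aberrant-marker runs (1394 and 263 FPKM in the first, 294 and 1138 in the second), while the gene's sum was 1657 and 1433 FPKM.

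Gnb2l1, the entry of the ribosomal scaffold protein Rack1, and Rpl36al have symbols outside the naming rule, and they too had their highest level in the aberrant-marker library. Gnb2l1 reached 429 FPKM in conditional control and 415 in normal-marker macrophages, 894 in aberrant-marker macrophages, 461 in the wild type and 633 in the germline knockout. Rpl36al was at 242, 246, 344, 250 and 335 FPKM in the same order of libraries. Rps27a, a member whose product is made as a fusion with ubiquitin, was at 444 and 438 FPKM in the control and 752 and 741 FPKM in the aberrant-marker library, a difference of 0.76.

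Other genes of the translation machinery were read from lists. Among 24 elongation factors and other TOP mRNAs, 10 were called higher and 0 lower in the aberrant-marker library, with a median difference of 0.89. The called shares were 8.6% and 9.13% of all genes, and 20.8% and 22.1% of genes with at least 20 FPKM. Npm1, a nucleolar chaperone, reached 209 FPKM in the control and 677 FPKM in aberrant-marker macrophages, and Btf3 182 and 529. Eef1a1, which brings aminoacyl-tRNA to the ribosome, was at 2211 and 5146 FPKM. The intermediate filament gene Vim, also on that list, was lower by 0.33, and was not called. Of 23 initiation factors 7 were called higher and 0 lower, against the same shares, with a median of 0.54. Eif2s2 was at 28.6 and 127 FPKM and Eif1 at 652 and 2330.3.

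Genes that build ribosomes showed no common direction. Of 34 assembly and RNA polymerase I genes, 3 were called higher and 2 lower in the aberrant-marker library, with a median of -0.25. The 2 lower genes were Rrs1 and Bop1, assembly factors of the large subunit. Rrs1 stood at 22.5 FPKM in the control against 0.0382 in aberrant-marker macrophages, and Bop1 at 23.7 and 3.76. The 3 higher genes were Polr1c, at 30.5 and 98.7 FPKM, Sbds, at 41.4 and 119, and Nmd3, at 4.85 and 20.7. Of 77 mitochondrial ribosomal proteins, which make up the separate ribosome of that organelle, 2 were called higher and 7 lower, with a median of -0.31. The called shares were 8.6% and 9.13% of all genes, and 20.8% and 22.1% of genes with at least 20 FPKM. The lower calls thus did not exceed the background. The called genes with the largest differences were Mrps34 and Mrpl16. Mrps34 was at 80.9 and 11.9 FPKM and Mrpl16 at 61.8 and 12.0. Levels of this family are low, with a median over genes of 38.3 FPKM. Of 17 measured regulators of ribosomal protein synthesis, 2 were called higher and 1 lower. Myc, which drives ribosome synthesis in growing cells, was the lower gene, at 52.9 and 7.30 FPKM. Rps6kb2, an S6 kinase, was at 5.68 and 24.5 FPKM, and Larp1 at 28.2 and 29.4.

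In the germline knockout the TOP list had a median of 0.41, with 1 gene called higher and 2 lower. The called shares were 6.13% and 8.98% of all genes, and 15.6% and 22.9% of genes with at least 20 FPKM. The higher gene was Tpt1, at 324 FPKM in the wild type and 1061 in the germline knockout. The lower ones were Eif4a2, at 64.0 and 11.2, and Nap1l1. Initiation factors had a median of 0.41, with 2 called higher and 1 lower. Mitochondrial ribosomal proteins had a median of -0.03 with 9 called higher and 5 lower. Assembly genes had a median of 0.21 with 3 called higher and 5 lower. Myc was at 80.1 FPKM in the wild type and 32.4 in the germline knockout, and Rps6kb2 at 5.39 and 46.2. In the normal-marker comparison the medians of these lists lay between -0.16 and 0.07, and 0 TOP genes were called. Myc was at 23.8 FPKM in the normal-marker library. Myc was thus lower than its control in each of the 3 knockout libraries. Its part in the ribosomal protein result was not tested.

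**Figure D5:**
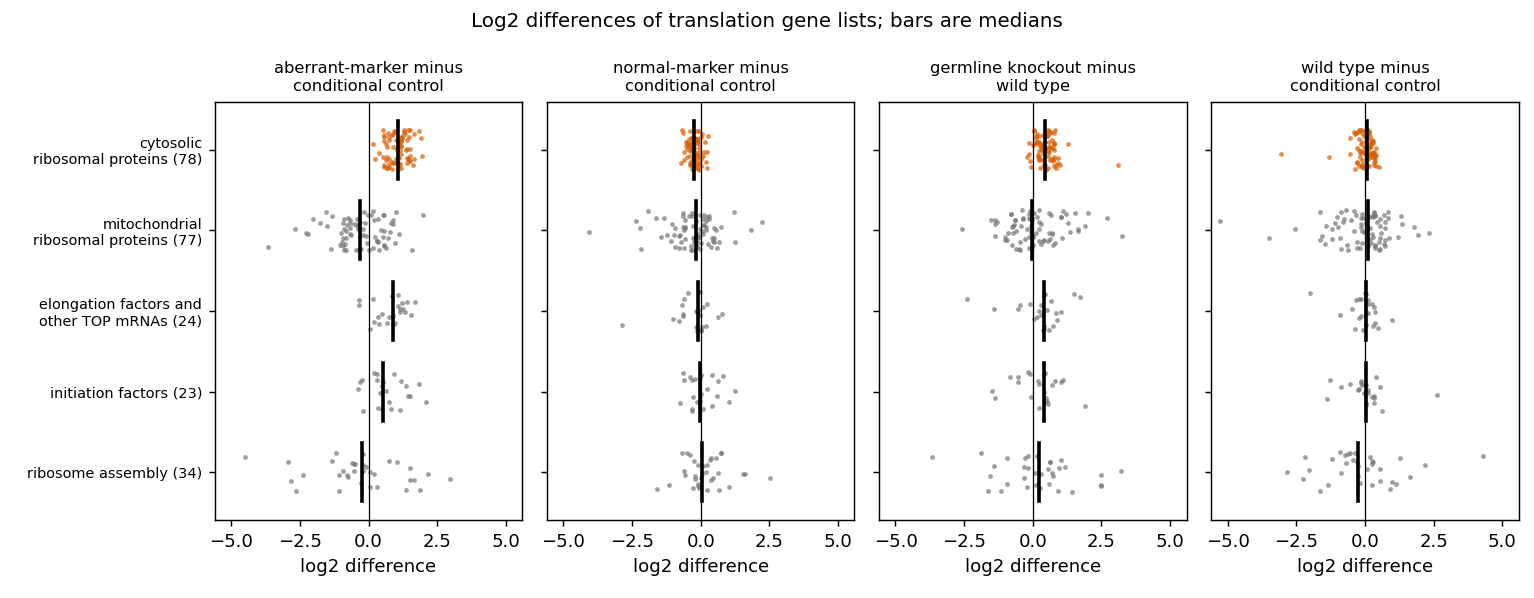
Log2 difference of each gene of 5 translation lists in 4 comparisons; points are genes, black bars are list medians, and the number of genes is in brackets. In the aberrant-marker comparison the 78 cytosolic genes lie in a narrow band around 1.08, and the 77 mitochondrial genes spread widely around -0.31.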

How the data were processed

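RNA was measured in 10 samples, 2 in each of 5 groups. The authors deposited FPKM values per RefSeq transcript. The tools named, with no role, are eXpress 1.5.1 and Bowtie 1.1.2, per the submitters' processing notes. No genome build or filter is stated in the sources used here. Per the labels' protocols, cDNA was made from 100 pg of RNA with 18 PCR cycles. All 10 columns were mapped by sample title, and FPKM were summed over the transcripts of each gene.

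Genes with at least 1 FPKM in 2 columns (11336) were kept, and 1 FPKM was added before the log2. The runs of a group were averaged, as the report explains, and no model or p-value was computed. The calling rule was tested on simulated data that held counting noise only. That simulation cannot show how often the rule calls genes that differ between single libraries for other reasons. The members, lists and motifs were chosen with earlier results of these data known. Named genes follow a rule: the 5 highest and lowest members, the 3 largest differences each way per comparison, the 4 steadiest and 4 most variable, paralogues and partners, stalk and X-linked genes, Rpsa, Fau, Rps27a and Gnb2l1, and up to 2 called genes of each pathway list; other genes named were chosen after their values were seen, and 1 gene of the rule is not reported here. Pathway and marker lists were described by counts and medians.

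Alternatives were a pseudocount of 0.1 FPKM, upper quartile scaling, scaling to the total of other genes, the most abundant transcript per gene, a 4-fold threshold, the wild type as reference, leaving out each run, leaving out genes that have a paralogue among the members and, added later, leaving out paralogues. Python 3.11.15, numpy 2.4.6, pandas 2.3.3 and matplotlib 3.10.9 were used.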

Additional observations from a re-analysis of the deposited data

Results flagged for a closer look

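Results that ran in opposite directions in every pairing of runs, in comparisons that use different controls, are listed here; the difference between the comparisons was not tested, because each side is 1 library. The members' median was -0.23 in the normal-marker comparison and 0.43 in the germline comparison. Rpl7l1 stood at 0.98 in aberrant-marker macrophages and at -0.77 in the germline comparison. Between the normal-marker and the germline comparison, Rpl23 was at -0.63 and 3.11, Rpl31 at -0.52 and 0.58, and Rps16 at -0.60 and 0.66. Single genes are listed where both differences reached 0.5 on the log2 scale. For Rpl23 the wild-type runs, at 3.89 and 4.35 FPKM, set the second value.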

How the results depend on the processing

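No comparison changed its direction under any alternative, and of 408 checks of single called members 405 kept their call; the other 3 missed it with the most abundant transcript per gene. The members' median in the aberrant-marker comparison (1.06) was 1.15 with scaling to the total of other genes, 1.04 with the most abundant transcript and 1.08 without paralogues, and 1.05 to 1.07 leaving out each run. The normal-marker median (-0.23) was -0.17 with upper quartile scaling, -0.25 with the total of other genes and -0.31 with the wild type as reference, and -0.24 to -0.23 leaving out each run. The germline median (0.43) was 0.58 with upper quartile scaling, 0.37 with the total of other genes, 0.40 with the most abundant transcript and 0.45 without paralogues, and 0.42 to 0.43 leaving out each run. Between the control libraries (0.11) it was 0.18 with the total of other genes and 0.074 without paralogues, and 0.082 to 0.112 leaving out each run. The 44 calls of the aberrant-marker comparison became 0 at 4-fold, and the 4 of the germline comparison 8 with upper quartile scaling and 2 without paralogues. In the order aberrant-marker, normal-marker, conditional control, germline and wild type, the members' shares were 15.7, 6.55, 7.60, 10.3 and 8.36% with the most abundant transcript, and 13.5, 5.57, 6.46, 8.97 and 7.00% without genes that have a paralogue among the members. The cause of these shifts was not tested. No paired analysis was possible because the sample numbers in the titles are unique to each sample and the 2 samples of a group were counted as 1 library. With 1 library a group, the spread between mice is not measured, and depth is known only approximately.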
